A study of Homo sapiens with 6 samples.

Results

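The genes that carry a cell from G1 into S phase were examined in the established human colorectal carcinoma line RKO, with and without overexpression of the long non-coding RNA LOC101927668. They were the D-type cyclins CCND1, CCND2 and CCND3, the E-type cyclins CCNE1 and CCNE2, cyclin A2 (CCNA2), the kinases CDK2, CDK4 and CDK6, and the transcription factor E2F1. These 10 genes are a fixed list of names among the 58735 genes of the expression table. All 10 passed the filter on low values and were among the 16061 genes tested. CCNE2, CDK2 and CDK4 rose in the overexpressing cells by between 0.69 and 0.73 on the log2 scale, and 0 of the 10 genes fell. Among all tested genes 10.7% rose and 9.74% fell at the same threshold, an adjusted p under 0.05. With any 1 library of the control cells left out, 0 of the 10 passed.

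The RNA came from 2 stable lines made by lentiviral infection and puromycin selection, one carrying the full LOC101927668 transcript (LOC_OE) and one carrying the empty vector (Vector), with 3 libraries each. Both groups therefore share the infection, the selection and the parental line, and the sources do not say whether a line is 1 clone or a pool. The series calls the libraries of a group biological replicates, but nothing names separate infections, so p-values measure the spread between these libraries. Each value is an FPKM, a count of sequenced fragments divided by the exon length of the gene and by a size for the library. This allows a rough comparison of levels between genes. The length takes in every annotated exon, so the level of a gene also depends on which of its transcripts are made. The size for the library was not the total of reads. It was 18569332 to 18763335 in Vector, above the reads on genes of each library, and 14692797 to 16036779 in LOC_OE, below them, so the deposited values already carry a scaling between libraries that lifts LOC_OE. The FPKM accordingly summed to 264150 to 280648 in Vector and to 305702 to 360434 in LOC_OE.

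In textbook accounts of G1, growth signals raise the D-type cyclins, which bind and activate CDK4 and CDK6. These kinases phosphorylate the retinoblastoma protein RB and so release E2F factors, which switch on the genes for cyclin E, cyclin A and DNA replication. Cyclin E with CDK2 completes the phosphorylation of RB, while inhibitors such as p21, the product of CDKN1A, hold the kinases back. The RB pathway is among the most often altered in cancer, and CCND1 is a known target of Wnt signalling in colorectal tumours.

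In the LOC_OE libraries 231, 270 and 276 reads fell on LOC101927668, against 1, 1 and 0 in Vector, so the labels matched the transgene. Reads on genes ranged from 15008842 to 18410231 per library. Of 9 colon epithelial markers 4 reached an FPKM of 0.5, among them EPCAM and CDX2, whereas CDH1 was at 0 in all libraries and KRT19, VIL1 and LGR5 were at or near 0. No marker of fibroblasts, leukocytes or endothelium reached it. LOC_OE replicate 1 stood apart, with a Pearson correlation across genes of 0.967 and 0.962 with the other LOC_OE libraries, which correlated at 0.982 with each other, as did the Vector libraries at 0.982 to 0.983. The summed FPKM of the epithelial markers was 39.4 to 41.5 in Vector and 48.4 to 89.6 in LOC_OE, where replicate 1 held the highest sum. KRT18 alone gave 67.5 of that sum of 89.6, while KRT8 was lower in replicate 1, at 9.02, than in the Vector libraries, at 11.7 to 11.9. Results are therefore given with and without LOC_OE replicate 1. Whether its difference from the other libraries contributes to a result was not tested.

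Expression of each gene was compared with limma on log2(FPKM + 1), and p-values were adjusted over all 16061 genes by the Benjamini-Hochberg method. Of the 10 genes, 3 rose at an adjusted p under 0.05, where 10.7% of all tested genes did. The same 3 also had a fold change of at least 1.5, which held for 4.63% of all genes. None of the 10 fell, against 9.74% of all genes. In 6 of the 10 every LOC_OE library lay above every Vector library (CCND2, CCNE1, CCNE2, CCNA2, CDK2 and CDK4), a separation seen in 24.4% of all genes. In 0 of 10 did every LOC_OE library lie below, against 20.9% of all genes. The median log2 fold change was 0.33 for the 10 genes and 0.02 for all tested genes. In single LOC_OE libraries the median of the 10 genes lay 0.91, 0.28 and 0.22 above the Vector mean, so replicate 1 moved most.

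Without LOC_OE replicate 1, 6 of the 10 genes rose and 0 fell, against 19.4% and 16.1% of all genes, with CCNE1, CCNA2 and CDK6 joining the 3. Without Vector replicate 1, 2 or 3 the count was 0 in each case. Calls were lost across the whole table as well, with 346, 144 and 199 of all genes higher in these fits against 1712 with all libraries. A further limit is the scaling. Rescaling each library to the same sum of FPKM moved the median of all genes to -0.18, and the median of the 10 genes to 0.08. The count of the 10 genes that rose was still 3, where 713 of all 16061 genes rose. The count that also had a fold change of at least 1.5 went from 3 to 0, and that of all genes from 743 to 259.

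**Figure D1:**
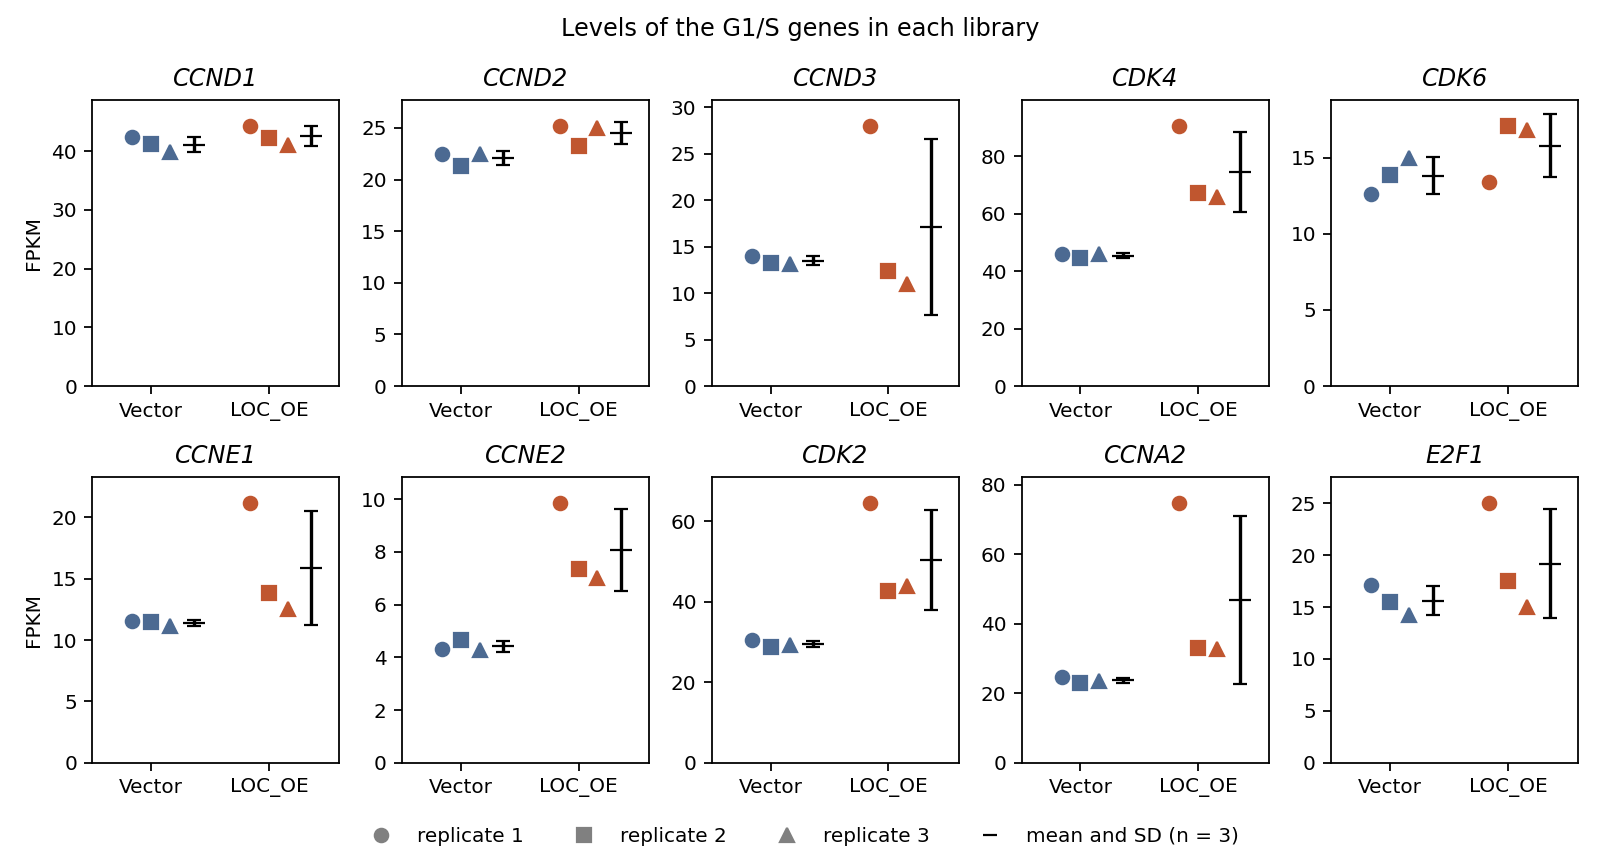
FPKM of the 10 genes (vertical axes, each from 0) in the 3 Vector libraries (blue) and the 3 LOC_OE libraries (orange), with replicates 1, 2 and 3 as circle, square and triangle and the mean with its SD as a black bar. LOC_OE replicate 1 was the highest library for 9 of the 10 genes, and for CCNE2, CDK2 and CDK4 all LOC_OE libraries lay clear of the Vector libraries.

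**Figure D2:**
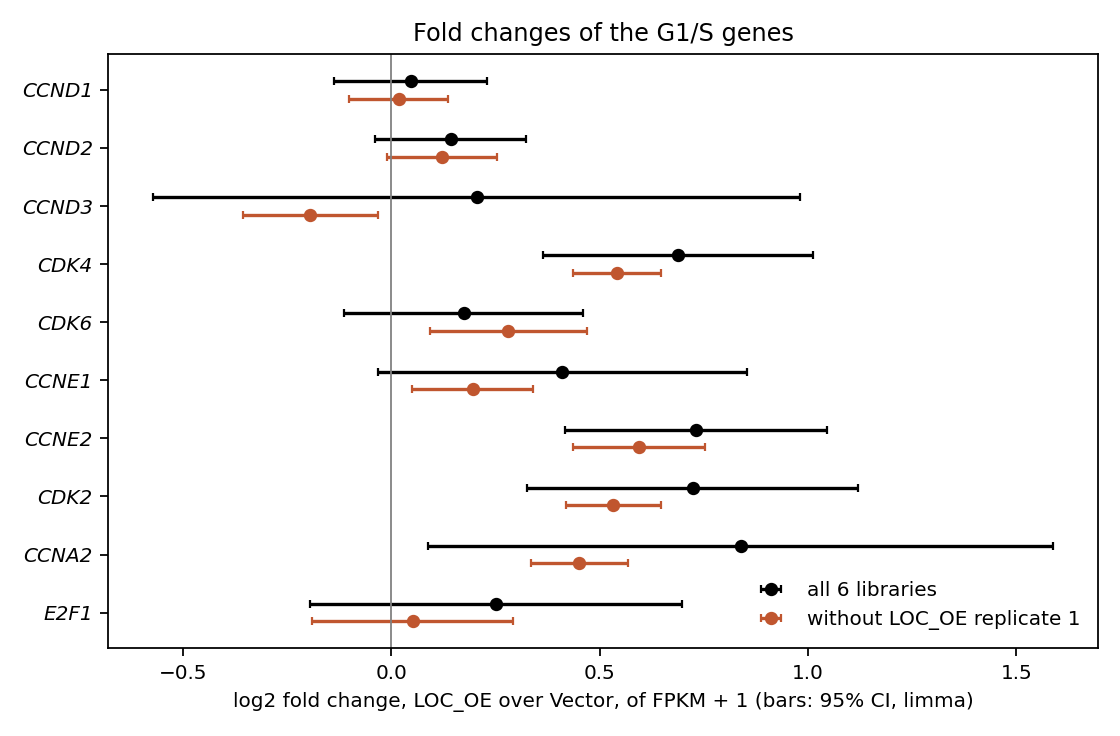
Log2 fold change of FPKM + 1, LOC_OE over Vector, with its 95% confidence interval before adjustment, for all 6 libraries (black) and without LOC_OE replicate 1 (orange). The interval of CCND3 runs from -0.57 to 0.98 with all libraries and from -0.36 to -0.03 without that library, and under rescaling to the same sum of FPKM the values of CCND1, CCND2, CCND3 and CDK6 change sign.

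The D-type cyclins are the sensors of growth signals, and none of the 3 passed the test. CCND1 (ENSG00000110092, GENCODE version 29 on GRCh38, chr11:69641087-69654474, plus strand) was the most abundant of them. Its FPKM was 42.5, 41.1 and 39.8 in the Vector libraries and 44.3, 42.3 and 41.0 in the LOC_OE libraries. The groups overlapped, and the means of 41.1 ± 1.35 and 42.5 ± 1.68 (SD, n = 3) were nearly equal. Its log2 fold change was 0.05 (95% interval -0.14 to 0.23, limma adjusted p = 0.692) and 0.02 without LOC_OE replicate 1, but -0.21 on rescaling to the same sum of FPKM. The interval leaves out a change as large as that of CDK4 or CDK2.

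CCND2 (ENSG00000118971, chr12:4273772-4305350, plus strand) lay at 22.5, 21.3 and 22.5 FPKM in Vector and at 25.2, 23.3 and 25.0 in LOC_OE. All LOC_OE libraries were above the Vector libraries, but the distance was small. This log2 fold change of 0.14 (95% interval -0.04 to 0.32) did not pass the test, with a limma adjusted p of 0.225 and of 0.132 without LOC_OE replicate 1, and it turned to -0.11 on rescaling to the same sum.

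CCND3 (ENSG00000112576, chr6:41934933-42050357, minus strand) was the D-type cyclin on which the LOC_OE libraries split. Its FPKM was 14.0, 13.2 and 13.2 in Vector and 28.0, 12.3 and 11.0 in LOC_OE. Replicate 1 lay above all Vector libraries and the other LOC_OE libraries lay below all of them. CCND3 had a log2 fold change of 0.20 with all libraries (limma adjusted p = 0.683), -0.19 without LOC_OE replicate 1 (limma adjusted p = 0.0660) and -0.04 on rescaling to the same sum. No direction can be given for this gene.

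The 3 D-type cyclins summed to 76.7 ± 1.97 FPKM in Vector and 84.1 ± 11.6 in LOC_OE (SD, n = 3). CCND1 made up 53.8%, 54.3% and 52.7% of this sum in the Vector libraries and 45.4%, 54.3% and 53.2% in the LOC_OE libraries. LOC_OE replicate 1 was low, and CCND3 took 28.7% of the sum there, against 17.5% to 17.8% in Vector. The share differed by -2.63 percentage points between the groups (two-sided exact permutation test, p = 0.6), and by 0.15 points in the other direction without that library.

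CDK4, the kinase partner of the D-type cyclins, rose. It was also the most abundant of the 10 genes in both groups (ENSG00000135446, chr12:57747727-57756013, minus strand). Its FPKM was 45.9, 44.4 and 46.0 in the Vector libraries and 90.6, 67.3 and 65.9 in the LOC_OE libraries. The groups were far apart, with LOC_OE replicate 1 the highest. The means of 45.4 ± 0.870 and 74.6 ± 13.9 FPKM (SD, n = 3) differed by 1.64 times. The log2 fold change was 0.69 (SE 0.135, limma adjusted p = 0.0196), 0.54 without LOC_OE replicate 1 (limma adjusted p = 0.00119) and 0.43 on rescaling to the same sum. The call was lost without any one Vector library, at limma adjusted p = 0.0736, 0.0904 and 0.0776 for replicates 1, 2 and 3. Of the exon bases of CDK4, 43.2% are shared with TSPAN31 on the opposite strand. Since no source gives the strand of the reads, those in the shared stretch could be counted for either gene. TSPAN31 itself had 3.29 to 4.21 FPKM.

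The 250 bases before the start site of CDK4 in RefSeq (GRCh38.p14, chr12:57752311-57752560, minus strand) are shown because they hold 3 copies of CACGTG, the E-box bound by MYC, marked in capitals. They lie within the span that GENCODE gives the gene, which reaches further upstream.
CDK4: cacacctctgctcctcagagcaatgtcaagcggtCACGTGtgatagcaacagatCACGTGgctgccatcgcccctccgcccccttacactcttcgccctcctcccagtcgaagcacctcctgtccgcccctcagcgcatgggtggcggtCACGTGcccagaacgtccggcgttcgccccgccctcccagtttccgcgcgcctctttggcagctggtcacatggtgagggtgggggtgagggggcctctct
The copies begin at positions -216, -196 and -101, counted back from the start site. CACGTG, which reads the same on both strands, occurs in 6.34% of all such windows and in 7.73% of the genes that have one. A match describes these letters only, and binding was not measured.

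CDK6 (ENSG00000105810, chr7:92604921-92836594, minus strand) is the other kinase partner of the D-type cyclins, and it did not pass the test with all libraries. It lay at 12.6, 13.8 and 15.0 FPKM in Vector and at 13.4, 17.1 and 16.8 in LOC_OE. LOC_OE replicate 1, the highest library for the other genes, fell inside the range of Vector, and the other LOC_OE libraries lay above it. CDK6 had a log2 fold change of 0.17 with all libraries (95% interval -0.11 to 0.46, limma adjusted p = 0.339), 0.28 without LOC_OE replicate 1 (limma adjusted p = 0.0355) and -0.07 on rescaling to the same sum. Within libraries, the log2 ratio of CDK6 to CDK4 was -1.86, -1.68 and -1.62 in Vector and -2.76, -1.98 and -1.97 in LOC_OE. All LOC_OE libraries had relatively less CDK6. The difference was -0.51, and -0.25 without LOC_OE replicate 1. The two-sided exact permutation test gave p = 0.1, the smallest that 3 against 3 libraries allow, and 0.133 after adjustment over the 4 ratios tested.

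The E-type cyclins activate CDK2 at the entry to S phase. CCNE1 (ENSG00000105173, chr19:29811898-29824308, plus strand) lay at 11.6, 11.5 and 11.2 FPKM in Vector and at 21.2, 13.9 and 12.6 in LOC_OE. The groups did not overlap, but replicate 1 held most of the distance. The log2 fold change of 0.41 (95% interval -0.03 to 0.85) did not pass the test, with a limma adjusted p of 0.162. Without LOC_OE replicate 1 the change was smaller, at 0.20, and CCNE1 passed with a limma adjusted p of 0.0482. On rescaling to the same sum of FPKM it was 0.17 and did not pass (limma adjusted p = 0.391).

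CCNE2 was the least abundant of the 10 genes in both groups and the one with the largest change among those that passed the test (ENSG00000175305, chr8:94879770-94896678, minus strand). Its FPKM was 4.33, 4.65 and 4.27 in the Vector libraries and 9.87, 7.36 and 7.0 in the LOC_OE libraries. The lowest LOC_OE library was well above the highest Vector library. The means of 4.42 ± 0.208 and 8.08 ± 1.57 FPKM (SD, n = 3) differed by 1.83 times. The log2 fold change was 0.73 (SE 0.131, limma adjusted p = 0.0156), 0.59 without LOC_OE replicate 1 (limma adjusted p = 0.00224) and 0.51 on rescaling to the same sum. Without Vector replicate 1, 2 or 3 the limma adjusted p was 0.0667, 0.0692 and 0.0701. The gene shares 37.0% of its exon bases with INTS8 on the opposite strand, which had 9.41 to 14.6 FPKM, so part of its reads could belong to INTS8.

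The balance of the E-type cyclins was read within each library. The log2 ratio of CCNE2 to CCNE1 was -1.42, -1.30 and -1.39 in Vector and -1.10, -0.91 and -0.85 in LOC_OE. Every LOC_OE library had relatively more CCNE2, including replicate 1. The difference was 0.42, and 0.49 without that replicate (two-sided exact permutation test, p = 0.1 and 0.133 after adjustment over the 4 ratios). The 5 protein-coding genes whose log2 profile over the 6 libraries lay nearest to that of CCNE2, among 7301 compared, were ELOC, RAD51AP1, USP16, CHCHD3 and NASP, at Euclidean distances of 0.0750 to 0.121. RAD51AP1 acts in homologous recombination and NASP is a histone chaperone. This likeness rests on 6 libraries in 2 groups, so any gene with a like rise comes near.

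**Figure D3:**
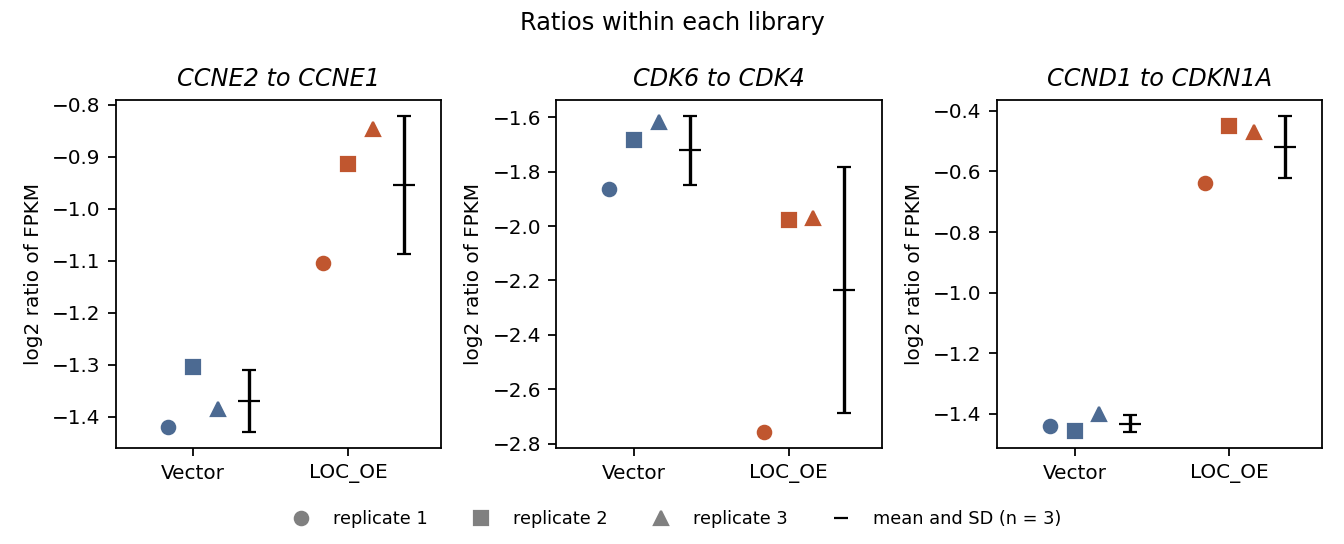
Log2 ratio of FPKM within each library (vertical axes, not from 0) for CCNE2 to CCNE1, CDK6 to CDK4 and CCND1 to CDKN1A in Vector (blue) and LOC_OE (orange), with replicates 1, 2 and 3 as circle, square and triangle and the mean with its SD in black. The groups do not overlap in any of the 3 ratios, and LOC_OE replicate 1 lies lowest of its group in each.

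CDK2, the kinase that cyclin E and then cyclin A activate, rose (ENSG00000123374, chr12:55966769-55972784, plus strand). Its FPKM was 30.4, 28.8 and 29.4 in the Vector libraries and 64.7, 42.6 and 43.8 in the LOC_OE libraries. The Vector libraries were tightly grouped and all LOC_OE libraries were above them. The means were 29.5 ± 0.816 and 50.4 ± 12.4 FPKM (SD, n = 3), 1.70 times apart. CDK2 had a log2 fold change of 0.72 (SE 0.166, limma adjusted p = 0.0291), 0.53 without LOC_OE replicate 1 (limma adjusted p = 0.00134) and 0.47 on rescaling to the same sum. Without Vector replicate 1, 2 or 3 the limma adjusted p was 0.0900, 0.111 and 0.101, and with no filter on low FPKM it was 0.0615.

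CCNA2, which takes over CDK2 in S phase, had the largest difference in means of the 10 genes, 1.97 times, but did not pass the test (ENSG00000145386, chr4:121816444-121823933, minus strand). Its FPKM was 24.6, 23.1 and 23.6 in Vector and 74.9, 33.1 and 32.7 in LOC_OE. Replicate 1 was more than the other LOC_OE libraries added together, and those still lay above all Vector libraries. CCNA2 had a log2 fold change of 0.84 with all libraries (SE 0.312, limma adjusted p = 0.105). On rescaling to the same sum of FPKM it was 0.58 (limma adjusted p = 0.135). Without LOC_OE replicate 1 it was 0.45 (limma adjusted p = 0.00201). The mitotic cyclins and their regulators also lay high in that library, and their part in the result was not tested. The median of 9 such genes lay 0.86 above the Vector mean in LOC_OE replicate 1, but at -0.15 and -0.16 in the other LOC_OE libraries. In bulk RNA, a change in the share of cells in a phase of the cycle and a change in RNA per cell cannot be told apart.

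The 250 bases before the RefSeq start site of CCNA2 (GRCh38.p14, chr4:121823884-121824133, minus strand) are shown because they hold TGACGTCA, the full cyclic AMP response element, and CCAAT, the box bound by NF-Y, read here from the other strand as ATTGG. Both are in capitals.
CCNA2: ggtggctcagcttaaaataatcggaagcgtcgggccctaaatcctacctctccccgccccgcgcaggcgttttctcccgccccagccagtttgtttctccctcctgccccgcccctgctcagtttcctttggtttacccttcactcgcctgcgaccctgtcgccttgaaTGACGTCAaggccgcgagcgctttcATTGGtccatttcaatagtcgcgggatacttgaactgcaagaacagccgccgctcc
The element lies 81 to 74 bases and the box 56 to 52 bases before the start site. TGACGTCA occurs in 1.65% of all windows and CCAAT, on either strand, in 32.0%. TTTGAA, a core of the cell cycle homology region known from late cell cycle genes, occurs in 13.3% of all windows and these letters are not in this one. Only that exact word was searched. Forms that differ from it by a letter, such as the cttgaa in this window, were not counted. Whether the window holds such a region was therefore not tested.

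E2F1, the transcription factor freed when RB is phosphorylated, did not pass the test (ENSG00000101412, chr20:33675683-33686404, minus strand). Its FPKM was 17.1, 15.5 and 14.3 in Vector and 25.1, 17.5 and 15.0 in LOC_OE. The groups overlapped, and only replicate 1 lay clearly above the Vector libraries. The log2 fold change was 0.25 (95% interval -0.20 to 0.70, limma adjusted p = 0.374), 0.05 without LOC_OE replicate 1 (limma adjusted p = 0.719) and 0.00 on rescaling to the same sum.

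The 250 bases before the RefSeq start site of E2F1 (GRCh38.p14, chr20:33686386-33686635, minus strand) are shown because E2F1 is known to be under E2F control itself. The E2F words searched, on both strands, were TTTCCCGC, TTTCCCGG, TTTCGCGC, TTTCGCGG, TTTGCCGC, TTTGCCGG, TTTGGCGC and TTTGGCGG, and matches to them and to CCAAT are in capitals.
E2F1: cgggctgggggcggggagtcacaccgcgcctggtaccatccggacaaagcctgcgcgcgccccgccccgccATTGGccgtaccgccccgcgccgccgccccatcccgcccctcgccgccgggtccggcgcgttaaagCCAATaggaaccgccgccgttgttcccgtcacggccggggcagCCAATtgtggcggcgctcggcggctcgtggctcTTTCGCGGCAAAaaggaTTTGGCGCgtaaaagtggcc
There are 3 E2F matches, of which TTTCGCGG and GCGGCAAA overlap each other and TTTGGCGC follows, all within the last 37 bases before the start site, and 3 CCAAT matches. One of the 8 words occurs in 5.23% of all windows and in 6.36% of the genes that have a window. Windows were searched for 6 of the 10 genes, CCNA2, CCND3, CCNE1, CDK4, CDK6 and E2F1. Of these 6, E2F1 was the only gene with an E2F match. No window of the remaining genes was searched, so whether they hold an E2F match was not tested.

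Among themselves, the 10 genes kept a clear order of level in Vector, from CDK4, CCND1, CDK2, CCNA2 and CCND2, whose ranges did not touch, through E2F1, CDK6 and CCND3, to CCNE1 and CCNE2. Within it only the ranges of E2F1 and CDK6 and those of CDK6 and CCND3 overlapped. In LOC_OE, CDK4 was still the highest and CCNE2 still the lowest, and CDK2 and CCNA2 stood before CCND1 by their means. There the ranges of neighbours overlapped from CDK2 to CCNA2, from CCNA2 to CCND1 and from CCND2 down to CDK6. The order within CDK2, CCNA2 and CCND1, and within the run from CCND2 to CDK6, is therefore not fully resolved. The ranges of CCND1 and CCND2 did not overlap. The ranges show the spread between libraries only. They do not cover the effect of exon length or of exon bases shared with other genes.

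The partners of E2F1 were read from a list of 17 RB, E2F and MuvB genes, which encode the RB family, the other E2F factors with their dimer partners and the complex that represses or activates cell cycle genes. Of these 6 rose and 0 fell, where 10.7% of all tested genes rose and 9.74% fell, with a median log2 fold change of 0.36. TFDP1, the dimer partner of the E2F factors, had the largest change, from 31.6 ± 2.58 to 56.6 ± 15.9 FPKM (SD, n = 3), a log2 fold change of 0.79 (limma adjusted p = 0.0339). The MuvB subunits LIN9, LIN54 and RBBP4 rose by 0.57, 0.42 and 0.46, RBL1, the RB relative p107, by 0.46, and the activator E2F3 by 0.36, all on the log2 scale.

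The rest of this list did not pass with all libraries. RB1 itself lay at 13.2, 12.7 and 12.8 FPKM in Vector and at 14.6, 15.2 and 15.1 in LOC_OE, with a log2 fold change of 0.20 (limma adjusted p = 0.0860). RBL2, the RB relative p130 known from resting cells, was the only one of the 17 with every LOC_OE library below every Vector library, at a log2 fold change of -0.47 (limma adjusted p = 0.224). The count of 6 became 12 without LOC_OE replicate 1, where 19.4% of all genes rose, 1 without LOC_OE replicate 2 and 0 without any one Vector library. Of all 16061 genes 782 rose without LOC_OE replicate 2, and 346, 144 and 199 without Vector replicates 1, 2 and 3. On rescaling to the same sum of FPKM only TFDP1 passed and the median was 0.11, while 713 of all genes rose.

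The CDK inhibitors bind the kinases or their cyclin complexes and block them. Of 7 listed, 6 were tested, 2 fell and 0 rose, where 9.74% of all tested genes fell and 10.7% rose. The same 2 fell by at least 1.5-fold, which 5.58% of all genes did. The median log2 fold change was -0.54, and -0.46 without LOC_OE replicate 1. CDKN1A, which encodes p21, had 115, 113 and 105 FPKM in Vector and 69.0, 57.7 and 56.7 in LOC_OE. Here LOC_OE replicate 1 was the library closest to Vector. CDKN1A fell by 0.85 on the log2 scale (SE 0.105, limma adjusted p = 0.00698), and passed without each of the 6 libraries in turn.

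CDKN2D, which encodes the CDK4 and CDK6 inhibitor p19, had 5.04, 6.52 and 6.37 FPKM in Vector and 2.20, 2.20 and 3.08 in LOC_OE. All LOC_OE libraries lay below all Vector libraries, and the log2 fold change was -1.0 (SE 0.141, limma adjusted p = 0.00893). Its call was lost without Vector replicate 2 and without Vector replicate 3, and held without each of the other 4 libraries. CDKN2B had a log2 fold change of -0.49 (limma adjusted p = 0.0625), and without LOC_OE replicate 1 it was -0.63 and passed (limma adjusted p = 0.00480). CDKN1B, which encodes p27, lay at -0.14 and CDKN2C at -0.02 with overlapping groups, CDKN1C lay at -0.59 (limma adjusted p = 0.170), and CDKN2A, at 0.0576 to 0.298 FPKM, was below the filter.

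The level of CCND1 relative to CDKN1A, an activator against an inhibitor, was read within each library. The log2 ratio was -1.44, -1.46 and -1.40 in Vector and -0.64, -0.45 and -0.47 in LOC_OE. The groups stood clear of each other. The difference was 0.91, and 0.97 without LOC_OE replicate 1 (two-sided exact permutation test, p = 0.1 and 0.133 after adjustment over the 4 ratios). With log2 fold changes of 0.05 for CCND1 and -0.85 for CDKN1A, this ratio mostly restates the fall of CDKN1A. It is not a separate result.

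Kinases of this step also depend on an activating kinase, on phosphatases and on the degradation of cyclins and inhibitors. Of 13 such genes 1 rose and 1 fell, with a median log2 fold change of 0.25. These counts are close to the 10.7% and 9.74% of all tested genes, so they are no result about the list. CUL1, the scaffold of the SCF ubiquitin ligases, rose from 28.3 ± 2.25 to 54.3 ± 8.13 FPKM (SD, n = 3), a log2 fold change of 0.91 (limma adjusted p = 0.00872). AMBRA1, a substrate receptor for the D-type cyclins, fell from 9.35 ± 0.273 to 6.87 ± 0.279 FPKM, a log2 fold change of -0.40 (limma adjusted p = 0.0172). Without LOC_OE replicate 1, 8 of the 13 rose and 1 fell, against 19.4% and 16.1% of all genes. Without Vector replicate 2 or 3 none rose, and without any one Vector library none fell.

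The genes downstream of E2F, a list of 24 with roles in licensing of origins, DNA synthesis and nucleotide supply, came next. Of these 12 rose and 0 fell, against 10.7% and 9.74% of all tested genes, with a median log2 fold change of 0.61. On rescaling to the same sum of FPKM 9 rose and the median was 0.36. Of all 16061 genes 713 rose on that rescaling, and the median of all genes was -0.18. All 24 log2 fold changes were above 0 with all libraries and the deposited scaling, but on that rescaling CDT1 lay at -0.03 and POLA2 at -0.14, and POLA2 lay at -0.15 without LOC_OE replicate 1. These 2 genes are named after their values were seen. In 21 of the 24 every LOC_OE library lay above every Vector library, against 24.4% of all genes. CDC45, a subunit of the replicative helicase, rose from 9.65 ± 0.649 to 22.6 ± 6.04 FPKM (SD, n = 3), a log2 fold change of 1.12 (limma adjusted p = 0.0115). CDC6, which loads the MCM helicase, rose by 0.98 (limma adjusted p = 0.0194), and UHRF1, needed to maintain DNA methylation, by 0.89 (limma adjusted p = 0.0438).

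The E2F targets lay highest in LOC_OE replicate 1, where their median was 1.09 above the Vector mean, against 0.41 and 0.44 in the other LOC_OE libraries. The count of 12 was 18 without LOC_OE replicate 1, where 19.4% of all genes rose, and 6 without LOC_OE replicate 2. It was 2, 0 and 0 without Vector replicates 1, 2 and 3. Of all 16061 genes 782 rose without LOC_OE replicate 2, and 346, 144 and 199 without Vector replicates 1, 2 and 3. Of 21 targets with a RefSeq window, 12 held one of the 8 E2F words in the 250 bases before a start site. The list was drawn up as known E2F targets, so this count describes the list and not the libraries.

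Genes of the same families with roles outside G1/S were read for comparison. Of 9 mitotic cyclins, CDK1 and their regulators 0 rose and 1 fell, against 10.7% and 9.74% of all tested genes, with a median of 0.21 that turned to -0.16 without LOC_OE replicate 1 and to -0.05 on rescaling to the same sum. The gene that fell was CDC25C, a phosphatase that activates CDK1, from 6.16 ± 0.527 to 3.15 ± 0.530 FPKM (SD, n = 3; limma adjusted p = 0.00991). Without LOC_OE replicate 1, 2 of the 9 rose and 3 fell, against 19.4% and 16.1% of all genes, and without any one Vector library 0 fell.

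Of the other cyclins and CDKs, which serve transcription and other processes, 20 of 21 were tested, 1 rose and 1 fell, and the median was 0.08. Both counts are below the shares of all tested genes, 10.7% and 9.74%. CDK17 rose from 14.9 ± 1.29 to 23.8 ± 1.27 FPKM (limma adjusted p = 0.00933), and CCNG1 fell from 50.1 ± 2.0 to 39.7 ± 3.07 FPKM (limma adjusted p = 0.0443). Without LOC_OE replicate 1, 6 rose and 4 fell, against 19.4% and 16.1% of all genes, and the call of CCNG1 was lost without any one of the other 5 libraries. The call of CDK17 was lost without Vector replicate 2. It was also lost on rescaling to the same sum of FPKM, where 0 of this list rose and 3 fell. None of the differences between these lists was tested, and the lists are described by their counts only.

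**Figure D4:**
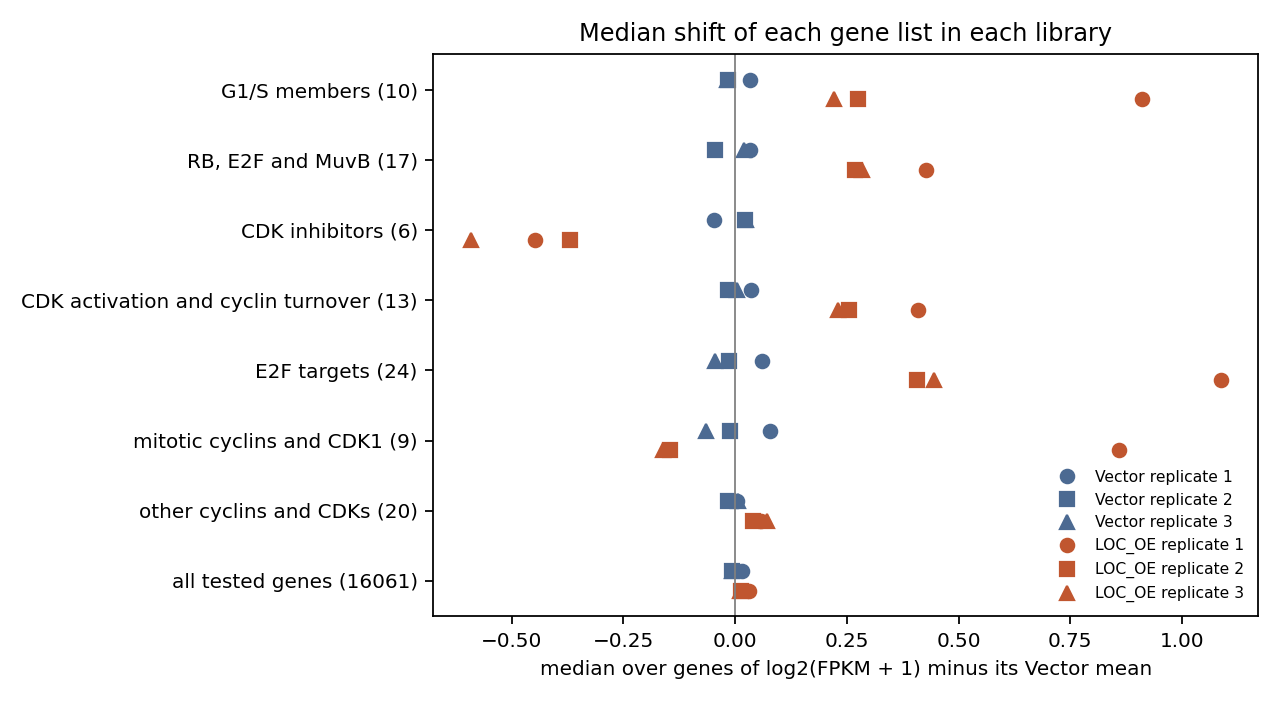
Median over the genes of each list (number tested in brackets) of log2(FPKM + 1) minus its mean in Vector (horizontal axis), for each Vector (blue) and LOC_OE library (orange), with replicates 1, 2 and 3 as circle, square and triangle. Every list but the CDK inhibitors and the mitotic genes lies above 0 in all LOC_OE libraries. The other cyclins and CDKs, at 0.04 to 0.07, and all tested genes, at 0.01 to 0.03, do so only slightly. The CDK inhibitors lie below 0, and the mitotic genes split between replicate 1 and the other replicates. Rescaling to the same sum of FPKM would turn the median fold change of the mitotic list to -0.05 and that of the other cyclins and CDKs to -0.12. The G1/S genes would lie at 0.08, the RB, E2F and MuvB genes at 0.11 and the E2F targets at 0.36. The activation and turnover genes would lie at 0.005 and all tested genes at -0.18.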

How the data were processed

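RNA from 3 Vector and 3 LOC_OE libraries of RKO cells was used. The authors deposited 1 table of FPKM values, made from paired-end reads of NEBNext Ultra libraries, with 58735 genes and 0 unused columns of values. The submitters' processing notes name HISAT2 2.0.4, StringTie 1.3.0 and hg38, without their roles. The counting method, the annotation and the strand are not given in the sources used here. All gene identifiers matched GENCODE version 29. FPKM times exon length gave whole multiples of one step for 100% of the values, within 0.1 read, and hence the reads behind each value. These reads cover counting error only. The size by which the FPKM had been divided was not the read total. Median-of-ratios factors of the FPKM were equal in all libraries, so the deposited values were already scaled between libraries and no further scaling was applied.

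Groups were compared on log2(FPKM + 1) by limma (version 3.58.1, R 4.3.3), two-sided, with a variance trend, for genes of at least 0.5 FPKM in at least 3 libraries. The fold change threshold of 1.5 is that of the study's text. Ratios within libraries were compared by exact permutation tests. Alternatives were a pseudocount of 0.1, no filter, a mean FPKM of at least 1, the same sum of FPKM, quantile normalization, no variance trend, array weights, voom for genes with 2 or more recovered reads, unadjusted p-values, a replicate block and leaving out each library.

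The genes and lists were chosen with earlier results of these data known. All 10 genes, the RB, E2F and MuvB genes and the CDK inhibitors may be named. Of the other pathway lists the 3 largest increases and decreases at an adjusted p under 0.05 are named, and for the largest increase that passed, the 5 nearest genes by profile, of mean FPKM 5 or more. No set test was run. Plots used matplotlib 3.10.9 under Python 3.11.15.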

Additional observations from a re-analysis of the deposited data

How the results depend on the processing

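With 3 libraries a group, 1 of them apart from the rest, calls near the threshold depend on single libraries. The count of the 10 genes that rose, 3, was 6 with array weights and ranged from 0 to 6 when 1 library was left out. With a fold change of at least 1.5 it was 0 with the same sum of FPKM, 1 with quantile normalization, 1 with array weights and 0 to 3 without 1 library. The 12 E2F targets that rose were 5 with no filter on low FPKM and 0 to 18 without 1 library. Of all genes 1712 were higher and 1565 lower. These counts were 713 and 3163 with the same sum of FPKM, 4362 and 3724 with array weights, and 3111 and 2744 at an unadjusted p. They ranged from 144 to 3117 and from 227 to 2586 without 1 library, and 1052 were higher with no filter. With a fold change of at least 1.5, 259 were higher and 1793 lower with the same sum, against 743 and 896, and 1705 were lower with voom. Log2 fold changes that changed sign were those of CCND1, at -0.21 with the same sum and -0.21 with quantile normalization, CCND2, at -0.11 and -0.033, CCND3, at -0.042 with the same sum, -0.11 with array weights and -0.19 to 0.44 without 1 library (-0.19 without LOC_OE replicate 1), and CDK6, at -0.070 with the same sum. The difference in the share of CCND1 ranged from -4.29 to 0.15 percentage points without 1 library. The causes were not tested.

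No source says whether the replicate numbers pair the libraries. The deviations of same-numbered libraries from their group means correlated at 0.111, -0.0338 and 0.116. Those of libraries with different numbers correlated at -0.128 to 0.0581. Deviations from a mean of 3 libraries depend on each other, so these values cannot decide the question. With the replicate number as a block, 3 of the 10 genes still rose, CCNE2, CDK2 and CDK4, at limma adjusted p = 0.0391, 0.0434 and 0.0394. The block left 1125 of all genes higher and 940 lower, 3 of the RB, E2F and MuvB genes higher, 2 of the activation and turnover genes higher and 0 of the other cyclins and CDKs lower. CCNE2 had 349 to 695 reads a library.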
